A study of Mus musculus with 8 samples.

Results

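The genes described here encode feedback inhibitors of MAP kinase signalling, 7 dual-specificity phosphatases (*Dusp1*, *Dusp4*, *Dusp5*, *Dusp6*, *Dusp10*, *Dusp14* and *Dusp16*) and 3 Sprouty proteins (*Spry1*, *Spry2* and *Spry4*), read in cardiac fibroblasts with and without a deletion of *Lmna*. The 10 genes were chosen by symbol out of 18957 genes listed per library. No measured value enters the rule, but the choice was made with earlier results of these data known. All 10 had enough counts to be tested, among 13036 genes that did.

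*Lmna* encodes the nuclear envelope proteins lamin A and lamin C. The mutant mice carried a floxed exon 2 of *Lmna* and a Cre recombinase transgene under the control of the *Pdgfra* locus, and are named Pdgfra-Cre:LmnaF/F. RNA was taken from PDGFRA-positive cells sorted by flow cytometry from the ventricles of mice 3 to 4 weeks old. Cells of the hematopoietic lineages and DAPI-positive dead cells were gated out. The 4 WT and 4 Pdgfra-Cre:LmnaF/F libraries were of total RNA depleted of ribosomal RNA, and each was taken to be from 1 mouse. All mice were of a mixed C57BL/6 strain. The WT mice were littermates with only wild-type alleles. No library of mice with the Cre transgene and an intact *Lmna* gene was analysed here, so the presence of Cre and the loss of *Lmna* cannot be told apart. *Pdgfra* is also active in some cardiac myocytes of the embryo, so the deletion is not restricted to fibroblasts. The p-values set the genotype difference against the spread among 4 libraries of each genotype.

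MAP kinases are switched on by phosphorylation of a threonine and a tyrosine, and dual-specificity phosphatases remove both phosphates. Growth factor receptors act through RAS, RAF and MEK on the kinases ERK1 and ERK2, while stress and cytokines act on the p38 and JNK kinases. Many of the phosphatase genes are themselves transcribed in response to these kinases, which makes them a negative feedback loop, and Sprouty proteins are induced by receptor tyrosine kinases and dampen the signal between the receptor and RAF. In cardiac fibroblasts these pathways are known for their part in proliferation and in the response to growth factors and stretch.

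The upstream sequences of 3 phosphatase genes are shown because 2 of these genes, *Dusp5* and *Dusp6*, were higher in each Pdgfra-Cre:LmnaF/F library than in any WT library, whereas *Dusp1*, an early response gene of the same family, was not. Sequences were found in the RefSeq promoter table (GRCm38.p6) for 8 of the 10 genes, and *Dusp4* and *Spry4* are named only. Each window begins 250 bases upstream of the RefSeq start of the gene and is written 5′ to 3′ on its strand. It ends before the first base that GENCODE annotates as exon on that strand, which is the RefSeq start itself for *Dusp6* but leaves out the last 36 of the 250 bases for *Dusp5* and the last 47 for *Dusp1*. Positions given below are counted back from the RefSeq start, so they include the bases left out. Capitals mark matches, on either strand, to the cyclic AMP response element (CRE, TGACGTCA), its half-site (TGACG), the GC box (GGGCGG), the ETS core (GGAAG) and the CArG box, which is the binding motif of serum response factor.
*Dusp5*, chr19:53528895-53529108, plus strand: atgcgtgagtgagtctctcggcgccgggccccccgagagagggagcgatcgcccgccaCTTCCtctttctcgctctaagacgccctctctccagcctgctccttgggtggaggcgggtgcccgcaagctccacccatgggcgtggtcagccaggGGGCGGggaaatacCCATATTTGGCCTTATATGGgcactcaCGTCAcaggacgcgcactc
*Dusp6*, chr10:99262981-99263230, plus strand: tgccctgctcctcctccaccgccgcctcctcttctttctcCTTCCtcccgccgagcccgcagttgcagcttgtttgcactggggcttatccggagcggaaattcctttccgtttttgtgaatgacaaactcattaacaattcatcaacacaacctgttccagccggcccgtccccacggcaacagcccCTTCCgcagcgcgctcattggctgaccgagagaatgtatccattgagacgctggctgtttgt
*Dusp1*, chr17:26508520-26508722, minus strand: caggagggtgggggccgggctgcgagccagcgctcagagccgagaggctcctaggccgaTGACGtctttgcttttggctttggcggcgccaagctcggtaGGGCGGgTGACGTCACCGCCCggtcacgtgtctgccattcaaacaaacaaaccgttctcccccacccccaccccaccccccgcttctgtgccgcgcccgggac

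The 3 windows differed in the motifs they held. The *Dusp5* window had 2 CArG boxes, which begin 82 and 72 bases upstream of the RefSeq start. Over the whole 250 bases, 1.47% of the 32851 promoters in that source had at least 1. It also had 1 ETS core, 1 GC box and 1 CRE half-site. The *Dusp6* window had 2 ETS cores, 210 and 62 bases upstream, a motif found in 64.1% of all promoters, and none of the other motifs. The *Dusp1* window had a full CRE 143 bases upstream, which 1.55% of promoters had, a separate half-site 191 bases upstream, and 2 GC boxes that flank the CRE. The full CRE itself contains the half-site on both strands. Half-sites were present in 17.8% and GC boxes in 32.7% of promoters. The AP-1 motif (TGANTCA) was absent from the 250 bases upstream of all 8 genes and present in 6.75% of promoters. In the 250 bases upstream of *Spry2* none of the motifs was found, and upstream of *Spry1* there was 1 GC box. Upstream of *Dusp14* there were 2 ETS cores, as for *Dusp6*, and 1 GC box. *Dusp16* had 1 CRE half-site and 5 GC boxes there, and *Dusp10* had 2 GC boxes. *Dusp10*, *Dusp14* and *Dusp16* overlapped between the genotypes, so ETS cores and half-sites were not particular to the genes that were higher. These matches are letters in a window, and binding was not measured.

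Total counts lay between 2080555 and 12502949 per library. WT replicate 2 had the lowest total, so that 1 CPM, the count scaled to a library of 1000000 counts, is 1.99 counts there, against 12.0 in the largest library. The targeted gene was lower in every Pdgfra-Cre:LmnaF/F library than in any WT library, with a log2 fold change of *Lmna* of -1.72 (SE 0.22, edgeR adjusted p = 0.00492), although reads on exon 2 could not be separated from the others. The 8 fibroblast markers, led by *Gsn* and *Dcn*, summed to between 82819 and 96809 CPM in the WT and between 80941 and 93525 CPM in the Pdgfra-Cre:LmnaF/F libraries, and none was at 0 in any library. The endothelial markers, led by *Pecam1* and *Kdr*, summed to 203 to 320.0 CPM in the WT and 129 to 273 CPM in the Pdgfra-Cre:LmnaF/F libraries. The ranges of the mural markers, led by *Rgs5* and *Notch3*, were 252 to 408 and 219 to 425 CPM. Those of the mesothelial markers, led by *Upk3b* and *Wt1*, were 11.02 to 45.8 and 6.67 to 15.7 CPM. Pdgfra-Cre:LmnaF/F replicate 4 stood apart, with 3345 CPM of 8 cardiac myocyte markers, led by *Myh6* and *Tnnt2*, against 205 to 422 CPM in the other Pdgfra-Cre:LmnaF/F libraries and 283 to 628 CPM in the WT. It also had 442 CPM of leukocyte markers, led by *Lyz2* and *C1qa*, against 47.7 to 109 CPM in the others of its genotype and 44.3 to 183 CPM in the WT. The median log2 fold changes of the cardiac myocyte, leukocyte and mesothelial markers were 1.21, 0.50 and -1.05. Over libraries, however, the median of the summed level was lower in the mutant for all these lists, at 421 against 583 CPM for the cardiac myocyte, 107 against 123 CPM for the leukocyte and 10.7 against 22.9 CPM for the mesothelial markers, and the mutant replicate 4 held the highest sum of the first pair. In bulk RNA of this kind, fewer cells of a type and less RNA per cell cannot be told apart.

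*Dusp4*, *Dusp5* and *Dusp6* were higher in each Pdgfra-Cre:LmnaF/F library than in every WT library, by 4.90-, 5.83- and 1.70-fold, and the other 7 genes overlapped between the genotypes. None of the 10 passed an adjusted p of 0.05 in edgeR's quasi-likelihood test, the threshold that 0.407% of all tested genes passed (0.169% higher and 0.238% lower). At an unadjusted p under 0.05 there were 3 of the 10, all higher, where 11.9% of all tested genes had such a p 6.24% being higher and 5.65% lower. The mutant libraries were all above the WT libraries for 3 of the 10 genes and for 4.06% of all tested genes, and all below for 0 of the 10 and for 3.97%. With DESeq2, which called 2.58% of the genes it tested and 1.15% as higher, *Dusp4* and *Dusp5* passed the threshold. With limma-voom, which called 126 genes in all against 53 in edgeR, *Dusp4* did. The median log2 fold change of the 10 genes was 0.18, against 0.02 over all tested genes.

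**Figure D1:**
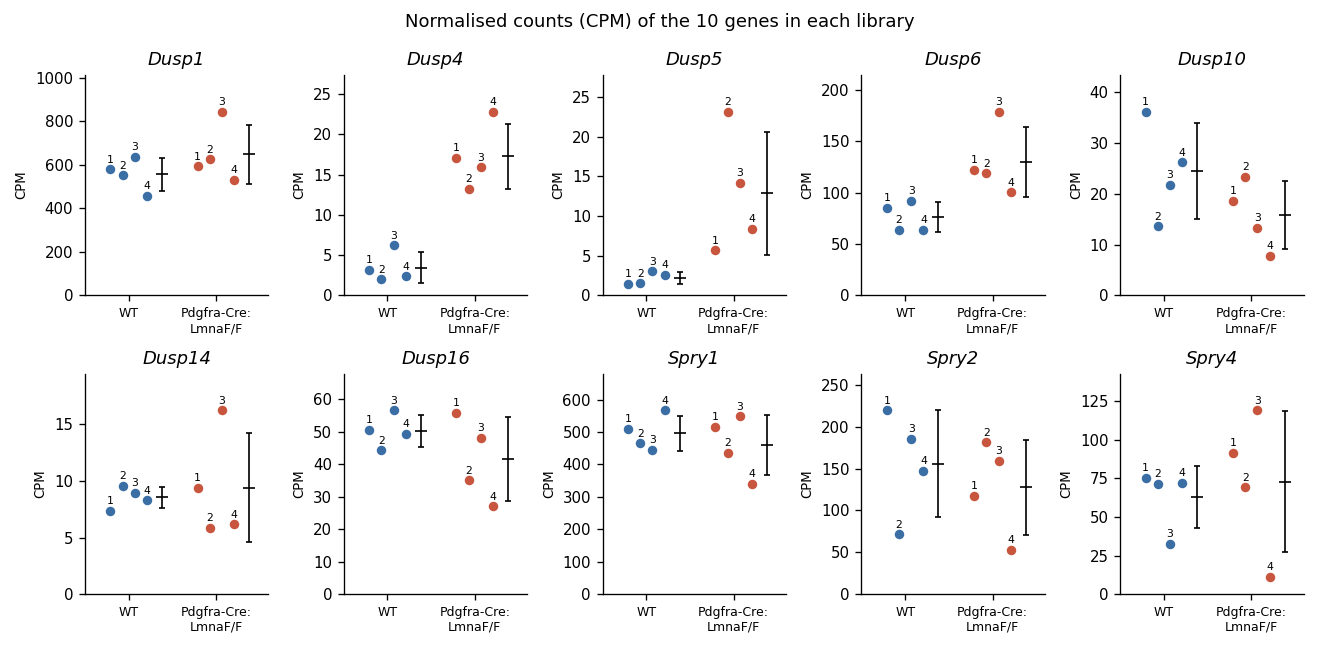
Normalised counts of the 10 genes in each library, in CPM on linear axes that start at 0. Blue points are the 4 WT and red points the 4 Pdgfra-Cre:LmnaF/F libraries, numbered by replicate, and the bars beside them are the mean ± SD. In the panels of *Dusp4*, *Dusp5* and *Dusp6* all red points lie above all blue points, and in the other 7 panels the groups overlap.

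*Dusp4* (ENSMUSG00000031530.6, mm10 chromosome 8, 34807297 to 34819894) encodes an inducible phosphatase of the nucleus that acts on ERK and JNK. In order of replicate, the WT libraries held 3.18, 2.01, 6.23 and 2.38 CPM of it and the Pdgfra-Cre:LmnaF/F libraries 17.1, 13.2, 15.9 and 22.8 CPM, and the same order is used for the genes that follow. The lowest mutant library was thus above the highest WT library. Mean levels were 3.45 ± 1.92 and 17.3 ± 4.05 CPM (SD, n = 4 each). For *Dusp4* the genotypes differed by a log2 fold change of 2.29 (SE 0.51, 95% interval 1.21 to 3.38, edgeR adjusted p = 0.0757), or 4.90-fold with an interval of 2.31 to 10.4. Behind the WT values stand 34, 4, 39 and 23 counts, so the WT level rests on 100 counts in all, against 704 in the Pdgfra-Cre:LmnaF/F libraries. DESeq2 gave an adjusted p of 0.00150 for *Dusp4*, and the adjusted p ranged from 0.000116 to 0.130 over 8 alternative settings, of which 5 passed the threshold. These 5 settings called 81 to 455 genes in all, against 53 in the main edgeR fit. Leaving out 1 library at a time gave log2 fold changes from 2.13 to 2.72, and *Dusp4* passed the threshold in edgeR without WT replicate 3 (adjusted p = 0.0313), the WT library in which it was highest.

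*Dusp5* (ENSMUSG00000034765.6, chromosome 19, 53529109 to 53542431) encodes an inducible nuclear phosphatase that acts on ERK and holds it in the nucleus. Its values were 1.49, 1.51, 3.04 and 2.59 CPM in the WT and 5.69, 23.1, 14.2 and 8.42 CPM in the Pdgfra-Cre:LmnaF/F libraries. The groups did not overlap, and the Pdgfra-Cre:LmnaF/F libraries spread far more widely, from replicate 1, the lowest, to replicate 2, the highest. Mean levels were 2.16 ± 0.778 and 12.9 ± 7.72 CPM (SD, n = 4 each). For *Dusp5* this was a log2 fold change of 2.54 (SE 0.65, 95% interval 1.16 to 3.92, edgeR adjusted p = 0.123), or 5.83-fold with an interval of 2.24 to 15.2. WT replicate 2 had 3 counts of *Dusp5*, which is at the floor of 3 counts, and the WT libraries together had 63 counts against 501. Without single libraries the log2 fold change ranged from 2.10 to 2.79. *Dusp5* passed the threshold in 2 of 8 alternative settings, both of them with DESeq2 (adjusted p = 0.00633 and 0.00245), which called 303 and 455 genes in all. An antisense gene, *AC137853.2*, overlaps 22.1% of the exon bases of *Dusp5* on the opposite strand. The libraries were strand-specific, but the strand setting of the counting is not given in the sources used here, so reads of the antisense gene cannot be told apart from those of *Dusp5* in that stretch.

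*Dusp6* (ENSMUSG00000019960.8, chromosome 10, 99263231 to 99267489) encodes the ERK phosphatase of the cytoplasm and is a widely used readout of ERK activity. It had 84.9, 63.9, 92.4 and 63.8 CPM in the WT and 122, 119, 179 and 100.4 CPM in the Pdgfra-Cre:LmnaF/F libraries. The gap between the groups was small, since the lowest mutant value, in replicate 4, lay just above the highest WT value, in replicate 3. Mean levels were 76.2 ± 14.6 and 130.0 ± 33.9 CPM (SD, n = 4 each), and *Dusp6* differed by 0.77 on the log2 scale (SE 0.23, 95% interval 0.28 to 1.25, edgeR adjusted p = 0.182). As a ratio this is 1.70-fold with an interval of 1.22 to 2.37. The counts were ample, 2230 over the WT and 5077 over the Pdgfra-Cre:LmnaF/F libraries. The log2 fold change stayed between 0.57 and 0.87 without single libraries, and 1 of 9 alternative settings, DESeq2 with 1 RUVr factor for unwanted variation, passed the threshold (adjusted p = 0.0424). That setting called 455 genes in all.

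**Figure D2:**
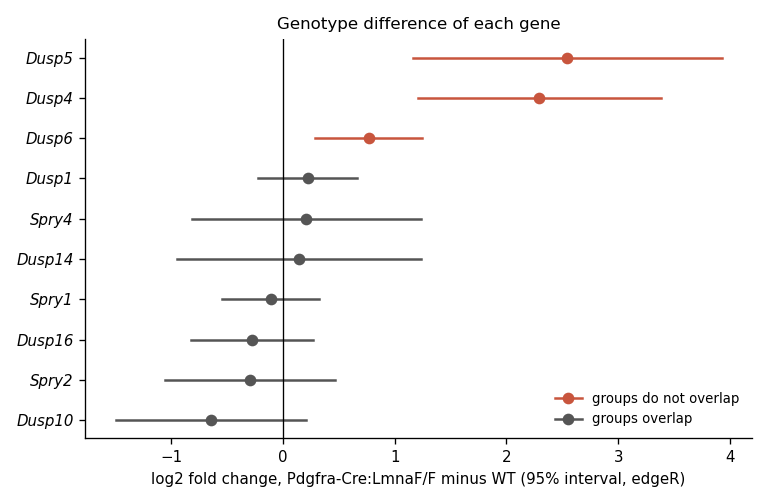
Log2 fold change of each of the 10 genes, Pdgfra-Cre:LmnaF/F minus WT, with its 95% interval from edgeR. Red marks the 3 genes whose groups do not overlap, *Dusp5* at 2.54, *Dusp4* at 2.29 and *Dusp6* at 0.77, whose intervals lie above 0, and the intervals of the 7 genes in grey include 0.

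*Dusp1* (ENSMUSG00000024190.7, chromosome 17, 26505590 to 26562128) encodes the founding member of the family, a nuclear phosphatase of p38, JNK and ERK and an immediate early gene. This GENCODE span reaches further upstream than the RefSeq start, so the window printed above lies within it. The values of *Dusp1* were 579, 551, 635 and 457 CPM in the WT and 592, 625, 844 and 529 CPM in the Pdgfra-Cre:LmnaF/F libraries. The groups overlapped, and only Pdgfra-Cre:LmnaF/F replicate 3 lay above the WT range. *Dusp1* differed between the genotypes by 0.22 on the log2 scale (SE 0.21, 95% interval -0.22 to 0.66, edgeR adjusted p = 0.756). The interval reaches from 0.859-fold to 1.58-fold, so a difference in *Dusp1* as large as the point estimates of *Dusp4*, *Dusp5* or *Dusp6* lies outside it. On the log2 scale, however, the interval of *Dusp6*, 0.28 to 1.25, overlaps that of *Dusp1*. Those of *Dusp4* and *Dusp5* begin above it, at 1.21 and 1.16. Whether *Dusp1* and *Dusp6* differ in their change was not tested.

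*Dusp10* and *Dusp16*, which encode phosphatases of p38 and JNK, had lower means in the Pdgfra-Cre:LmnaF/F libraries, but their groups overlapped. *Dusp10* (ENSMUSG00000039384.8, chromosome 1, 184013302 to 184075636) had 36.2, 13.6, 21.7 and 26.2 CPM in the WT and 18.6, 23.4, 13.2 and 7.83 CPM in the Pdgfra-Cre:LmnaF/F libraries. The lowest value was in Pdgfra-Cre:LmnaF/F replicate 4, and the log2 fold change was -0.65 (SE 0.40, 95% interval -1.50 to 0.20, edgeR adjusted p = 0.575). *Dusp16* (ENSMUSG00000030203.17, chromosome 6, 134715468 to 134792625) had 50.6, 44.3, 56.6 and 49.3 CPM in the WT and 55.8, 35.0, 48.1 and 27.0 CPM in the Pdgfra-Cre:LmnaF/F libraries. Of the mutant libraries, replicates 1 and 3 lay within the WT range of *Dusp16* and replicates 2 and 4 below it, with a log2 fold change of -0.28 (SE 0.26, edgeR adjusted p = 0.753). *Dusp14* (ENSMUSG00000018648.15, chromosome 11, 84048041 to 84069261) encodes a small atypical phosphatase without the MAP kinase binding domain of the others. Its WT libraries lay within 7.38 to 9.56 CPM and its Pdgfra-Cre:LmnaF/F libraries at 9.41, 5.84, 16.2 and 6.17 CPM. *Dusp14* had a log2 fold change of 0.14 (SE 0.51, edgeR adjusted p = 0.952), and it turned to -0.25 without Pdgfra-Cre:LmnaF/F replicate 3.

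The Sprouty genes overlapped between the genotypes. *Spry1* (ENSMUSG00000037211.12, chromosome 3, 37639947 to 37644598) had 509.6, 465, 445 and 567 CPM in the WT and 516, 437, 548 and 340.0 CPM in the Pdgfra-Cre:LmnaF/F libraries. Replicate 4 of the mutant was the lowest, replicate 2 lay just below the WT range, and the others within it. For *Spry1* the log2 fold change came to -0.11 (SE 0.20, 95% interval -0.54 to 0.32, edgeR adjusted p = 0.894), and 0.01 without that library. An uncharacterised gene, *Gm42922*, overlaps 24.4% of the exon bases of *Spry1* on the opposite strand, where the same limit on strand holds as for *Dusp5*.

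*Spry2* (ENSMUSG00000022114.5, chromosome 14, 105891947 to 105896819) ranged widely within each genotype. It had 219, 71.4, 186 and 147 CPM in the WT and 118, 181, 159 and 52.7 CPM in the Pdgfra-Cre:LmnaF/F libraries, with the lowest value of each genotype in WT replicate 2 and mutant replicate 4. The log2 fold change of *Spry2* was -0.30 (SE 0.36, 95% interval -1.06 to 0.47, edgeR adjusted p = 0.83).

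*Spry4* (ENSMUSG00000024427.7, chromosome 18, 38586247 to 38601415) had 75.5, 71.4, 32.8 and 72.0 CPM in the WT and 91.5, 69.2, 119 and 11.3 CPM in the Pdgfra-Cre:LmnaF/F libraries. Both the highest and the lowest library were of the mutant genotype. Its log2 fold change was 0.21 (SE 0.48, 95% interval -0.82 to 1.24, edgeR adjusted p = 0.921), with the direction dependent on single libraries, from -0.13 without mutant replicate 3 to 0.57 without mutant replicate 4. Of the 10 genes, *Spry4* and *Spry2* varied most for their level. Their biological coefficients of variation within genotypes, the spread beyond counting error, were 47.3% and 36.3%, at percentiles 98.8 and 97.4 among the 500 genes closest in level, where those of *Dusp1*, *Dusp4* and *Dusp5* were at 35.4, 22.4 and 32.6.

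Pdgfra-Cre:LmnaF/F replicate 4, the library with the highest sum of cardiac myocyte markers, had the lowest value of its genotype for 7 of the 10 genes, against 25.8% of all tested genes. It had the highest for *Dusp4*. Replicate 3 of the mutant had the highest value of its genotype for 5 of the 10, against 24.7% of all tested genes, and WT replicate 3 that of its own for 5 of the 10, against 31.7%. Without replicate 4 of the mutant and the shallow WT replicate 2, the log2 fold changes were 1.98 for *Dusp4*, 2.60 for *Dusp5*, 0.80 for *Dusp6* and 0.63 for *Spry4*, and none of the 10 genes passed the threshold in edgeR. The adjusted p of *Dusp4*, *Dusp5* and *Dusp6* was then 0.302, 0.247 and 0.294 in edgeR.

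**Figure D3:**
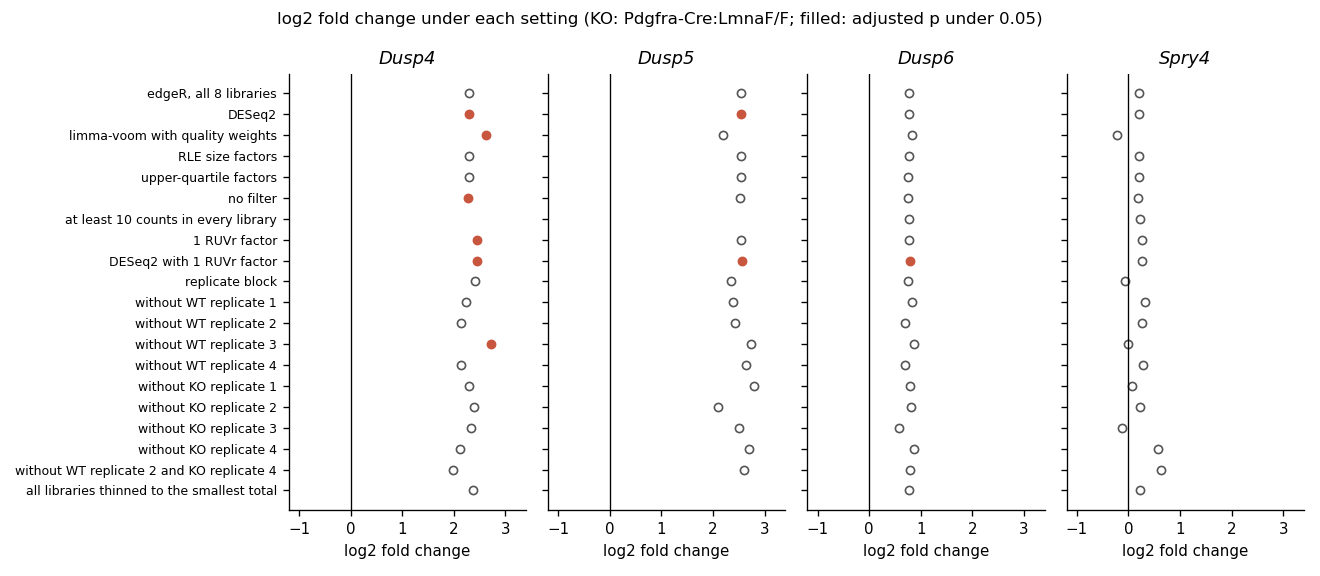
Log2 fold change of *Dusp4*, *Dusp5*, *Dusp6* and *Spry4* under each setting, where KO stands for Pdgfra-Cre:LmnaF/F and filled points have an adjusted p under 0.05. Where a gene was not tested under a setting there is no point. *Dusp4*, *Dusp5* and *Dusp6* stay above 0 throughout, while *Spry4* falls on both sides.

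On a scale that allows genes to be compared, CPM per kilobase of exon, *Spry1* and *Dusp1* were the most abundant of the 10 transcripts in WT fibroblasts. Their levels were 170.9 ± 18.6 and 168 ± 22.4 CPM per kilobase (SD, n = 4), and their libraries overlapped. *Spry2* followed with 74.7 ± 30.5, *Dusp6* with 24.3 ± 4.67 and *Spry4* with 13.2 ± 4.25 CPM per kilobase, each separate from the gene before it in all 4 WT libraries. *Dusp10* at 8.03 ± 3.09 overlapped both *Spry4* and *Dusp16*, the latter at 6.44 ± 0.648 CPM per kilobase. *Dusp14* had a level of 4.39 ± 0.480, and *Dusp4* and *Dusp5* were the lowest with 1.26 ± 0.699 and 0.872 ± 0.315 CPM per kilobase and overlapped. In the Pdgfra-Cre:LmnaF/F libraries *Dusp4* had 6.30 ± 1.48 and *Dusp5* 5.20 ± 3.12 CPM per kilobase, levels near those of *Dusp16*, *Dusp10* and *Dusp14* at 5.32, 5.18 and 4.84. With the longest transcript of each gene in place of all its exon bases, *Dusp1* became the highest in the WT at 240.1 CPM per kilobase, *Dusp16* moved to 9.83 and *Dusp14* to 5.44.

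**Figure D4:**
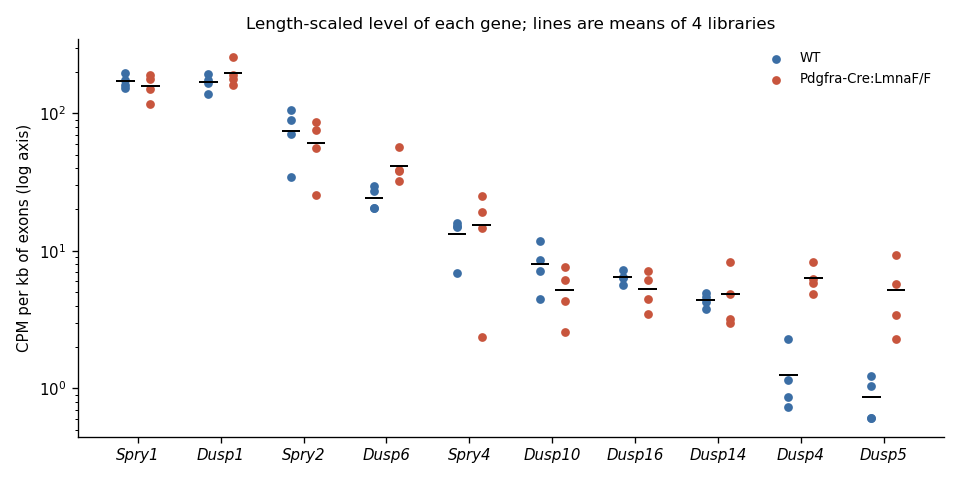
Level of each gene in CPM per kilobase of exon, on a log axis. Blue points are WT and red points Pdgfra-Cre:LmnaF/F libraries, lines are means of 4 libraries, and genes are ordered by their WT mean. *Spry1* and *Dusp1* stand highest in both genotypes, and *Dusp4* and *Dusp5*, the lowest pair in the WT, reach the range of *Dusp10*, *Dusp16* and *Dusp14* in the mutant.

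On the same scale per kilobase, the shares of *Dusp1*, *Dusp4*, *Dusp5* and *Dusp6* in the summed level of the 7 phosphatases did not overlap between the genotypes. The shares of *Dusp10*, *Dusp14* and *Dusp16* did. *Dusp1* made up 76.9% to 81.9% of the sum in the WT libraries and 73.2% to 75.1% in the Pdgfra-Cre:LmnaF/F libraries. Its mean level was not lower in the mutant, at 196 against 168 CPM per kilobase. *Dusp6* made up 10.04% to 12.1% in the WT and 14.8% to 16.7% in the mutant. *Dusp4* and *Dusp5* remained minor, at means of 0.573% and 0.414% in the WT and 2.51% and 1.97% in the mutant. These shares follow from the same counts as the fold changes and add no independent test. Among the 3 Sprouty genes, *Spry1* held 66.7%, *Spry2* 28.2% and *Spry4* 5.17% of the summed level in the WT, and 68.9%, 25.1% and 5.92% in the Pdgfra-Cre:LmnaF/F libraries.

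A ratio of 2 genes within a library does not depend on library size, but it restates the same counts and adds no independent test. The pairs given here were picked after the values were seen, and other ratios of *Dusp6*, to *Dusp14*, *Spry2* and *Spry4*, overlapped between the genotypes. For every 100 counts of *Dusp1* there were 14.7, 11.6, 14.5 and 13.9 counts of *Dusp6* in WT replicates 1 to 4 and 20.6, 19.0, 21.2 and 19.0 in Pdgfra-Cre:LmnaF/F replicates 1 to 4. Each mutant library lay above each WT library, and the spread within a genotype was narrow, with means of 13.7 ± 1.43 and 19.9 ± 1.13 counts (SD, n = 4). The ratio of *Spry4* to *Spry1* behaved otherwise, with 14.8, 15.4, 7.37 and 12.7 counts of *Spry4* per 100 counts of *Spry1* in the WT and 17.7, 15.9, 21.7 and 3.33 in the Pdgfra-Cre:LmnaF/F libraries. The mutant libraries held both the highest and the lowest of these values.

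The other genes of the pathway were read from lists of its parts. Of all tested genes, 6.24% were higher and 5.65% lower at an unadjusted p under 0.05 in edgeR. Among 11 tested of 14 other dual-specificity phosphatase genes, 0 passed the threshold in edgeR, 1 was lower at an unadjusted p under 0.05, and the median log2 fold change was -0.34. That gene was *Dusp3*, an atypical phosphatase of ERK and JNK, at -0.43 on the log2 scale (edgeR adjusted p = 0.376), and *Dusp19* had the next lowest p with -1.29 (adjusted p = 0.552). The 3 listed relatives of the Sproutys, the Spred genes, which inhibit the activation of RAF by RAS, had a median of 0.38, with 0.38 for *Spred1* (adjusted p = 0.540) and -0.38 for *Spred2* (adjusted p = 0.720), and 0 of them had an unadjusted p under 0.05. Of 11 other inhibitors of receptor and RAS signalling 0 had an unadjusted p under 0.05, and the median was 0.02. The lowest p among them belonged to *Dab2ip*, a RAS GTPase-activating protein, with -0.51 (adjusted p = 0.455), and *Errfi1*, an inhibitor of the EGF receptor, with 0.68 (adjusted p = 0.591).

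In the kinase cascades on which these inhibitors act, no gene passed the threshold in edgeR. The counts at an unadjusted p under 0.05 stand against 6.24% of all tested genes being higher and 5.65% lower. Of 20 genes of the RAS-ERK cascade 0 passed the threshold in edgeR and 1 was higher at an unadjusted p under 0.05, with a median log2 fold change of 0.04. The gene was *Shoc2*, a scaffold that helps to activate RAF, with 0.46 (adjusted p = 0.401), followed by the receptor adaptor *Frs2* with 0.44 (adjusted p = 0.575). Of 18 tested genes of the p38 and JNK cascades 0 passed and 1 was higher at an unadjusted p under 0.05, with a median of 0.02. *Mapk8*, which encodes a JNK, had 48.3, 23.1, 34.2 and 35.9 CPM in the WT and 50.7, 58.8, 67.1 and 54.1 CPM in the mutant libraries, a log2 fold change of 0.69 (adjusted p = 0.279). *Mapkapk3*, a kinase downstream of p38, had a log2 fold change of -0.68 (adjusted p = 0.547) with no overlap between the groups. Of 13 receptor tyrosine kinase genes 0 passed in edgeR, 2 were higher and 1 lower at an unadjusted p under 0.05, and the median was -0.11. The lowest p among the receptors were those of *Insr*, the insulin receptor, with 0.92 (adjusted p = 0.208) and *Igf1r* with 0.63 (adjusted p = 0.374), and *Insr* passed with DESeq2 and 1 RUVr factor.

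Of 12 genes that ERK induces, 1 rose in the Pdgfra-Cre:LmnaF/F fibroblasts at an edgeR adjusted p under 0.05, where 0.169% of all tested genes did. At an unadjusted p under 0.05, 3 were higher and 1 was lower, against 6.24% and 5.65% of all tested genes. The median log2 fold change was 0.09. *Ier3*, an immediate early gene that acts on ERK and on survival, had 11.5, 21.1, 21.1 and 11.4 CPM in the WT and 51.5, 47.3, 86.2 and 50.1 CPM in the mutant libraries, or 1.88 on the log2 scale (edgeR adjusted p = 0.0221). It did not pass without WT replicate 1, WT replicate 4 or Pdgfra-Cre:LmnaF/F replicate 3. The others at an unadjusted p under 0.05, named after their values were seen, were *Fos* with 1.80 (adjusted p = 0.0757), *Egr1* with 1.32 (adjusted p = 0.117) and *Ccnd1* with -1.88 (adjusted p = 0.332). *Fos* passed the threshold with DESeq2, with limma-voom, with no filter on low counts, with 1 RUVr factor in edgeR or DESeq2, with the replicate block, without WT replicate 3 and without WT replicate 2 and mutant replicate 4 together. *Egr1* passed with DESeq2, with or without the RUVr factor, and with no filter, and *Ccnd1* with no filter. *Ier3*, *Fos* and *Egr1* also belong to the list of the dissociation response given below, so their values are not a separate observation from it. *Ccnd1* had 188 CPM in WT replicate 2 against 12.5 to 17.1 CPM in the other WT libraries.

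**Figure D5:**
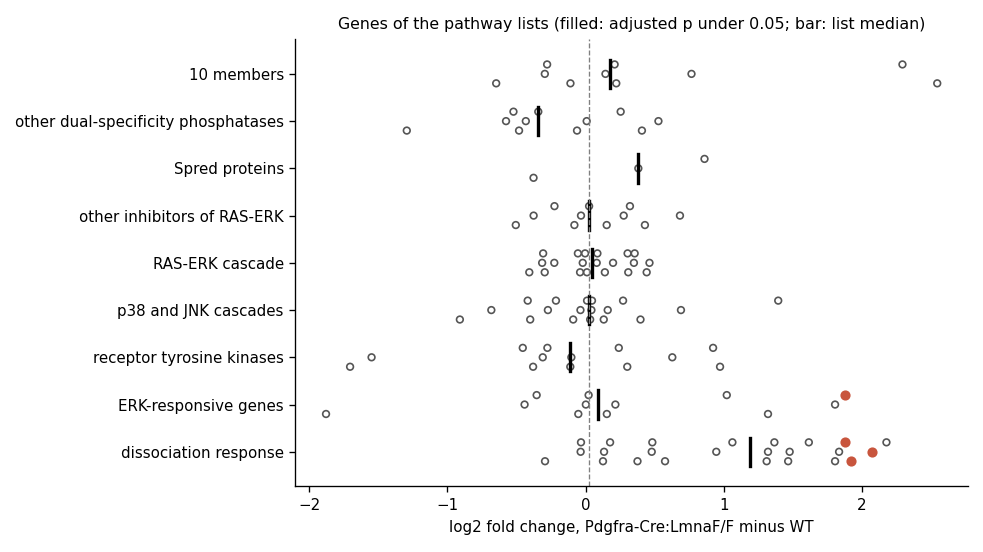
Log2 fold change of each tested gene of the lists, Pdgfra-Cre:LmnaF/F minus WT. Each circle is a gene, filled circles have an edgeR adjusted p under 0.05, black bars are list medians and the dashed line is the median of all tested genes, 0.02. Of the lists plotted, which leave out the cell type markers, the medians lie between -0.34 and 0.38 except that of the dissociation response, at 1.19.

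Several of the 10 genes belong to the early response that dissociation of a tissue into cells can induce, so the rest of that response was read beside them. In 24 of its genes other than the 10, of which 3 (*Ier3*, *Fos* and *Egr1*) are among the ERK-induced genes above, the summed level was 4278 to 7552 CPM in the WT and 9905 to 15138 CPM in the Pdgfra-Cre:LmnaF/F libraries, with no overlap. Of these 24 genes 3 rose at an edgeR adjusted p under 0.05, against 0.169% of all tested genes, namely *Ier3*, *Btg2* and *Nr4a1*, with log2 fold changes of 1.88, 2.08 and 1.92. At an unadjusted p under 0.05 there were 16, all higher, against 6.24% of all tested genes. A log2 fold change above 0 was found for 21 of the 24 and for 6757 of all 13036 tested genes, and the median of the list was 1.19. The list thus moved with the genotype in the same direction as *Dusp4*, *Dusp5* and *Dusp6*, and the part of dissociation in the differences of these genes was not tested.

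The genes whose level followed *Dusp4* most closely across the 8 libraries, after each genotype was centred on its mean, were *Hdac8*, *Arsa* and *Bad*, with Pearson r of 0.98, 0.97 and 0.96 on log2 CPM and Spearman rho of 0.98, 0.90 and 0.88. Those of *Dusp5* were *Leng9*, *Ppp3ca* and *Neu1*, with r of 0.99, 0.98 and 0.98 and rho of 1, 0.98 and 0.86. They are the highest of 9487 and 9488 candidates over only 8 libraries, which share their sort and their depth with both genes of each pair, and are given as a description.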

How the data were processed

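RNA of sorted PDGFRA-positive cardiac cells in 4 WT and 4 Pdgfra-Cre:LmnaF/F libraries was analysed, with genotype and replicate number taken from the sample labels. The libraries, strand-specific and depleted of ribosomal RNA, were read as pairs of 150 bp. Alignment was to mm10 by HISAT2 and counting by featureCounts with GENCODE gene models, and the authors deposited the unscaled counts of each gene as whole numbers. The strand setting of the counting is not given in the sources used here, and the RUV normalization and DESeq2 test of the study are not part of these values. Each library lists the same 18957 genes, of which the lowest total over all libraries is 4 counts. Intervals cover counting error and the spread between libraries, while totals of counts are sums without a measure of spread. A gene at 3 counts or fewer in a library was taken to be at the floor.

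The analysis ran in R 4.3.3 and edgeR 4.0.16. TMM factors and filterByExpr were used, which left 13036 genes, and WT and mutant libraries were set against each other in the quasi-likelihood test without covariates. The p-values were adjusted by Benjamini-Hochberg over all genes tested, at a threshold of 0.05. CPM are counts scaled to 1000000 of the effective library size. The SE is the absolute log2 fold change divided by the square root of F, and the 95% interval uses edgeR's degrees of freedom. Because the study's RUV step cannot be rebuilt from its text, DESeq2 1.42.0 and RUVr entered as alternatives, beside limma-voom (limma 3.58.1) with quality weights, upper-quartile or RLE factors, all listed genes, only genes with 10 or more counts in each library, the replicate number as a block, and the removal of single libraries. After the data were seen, leaving out WT replicate 2 together with Pdgfra-Cre:LmnaF/F replicate 4 and thinning all libraries to 2080555 counts were added. The procedure was tested on simulated counts with known changes.

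Gene positions, exon lengths and overlaps came from GENCODE release M21, and motifs were searched with Python 3.11.15 in the 250 bases upstream of each start in the RefSeq table. The 10 genes and all lists were chosen with earlier results of these data known. The named genes are *Lmna*, the 10 genes, of each pathway list those past the threshold or else the 2 with the lowest p, of each marker list the 2 with the highest level, and for *Dusp4* and *Dusp5*, which had the lowest p of the 10, the 3 genes of most similar pattern with a mean of at least 10 CPM. A further marker list is not reported here.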

Additional observations from a re-analysis of the deposited data

Results flagged for a closer look

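In 60 groups of 4 libraries (the 10 genes, the genes named by rule from the pathway lists, and the summed levels of 7 marker and dissociation lists, in each genotype), 5 had a highest or lowest library whose gap to the nearest other, divided by the range, exceeded Dixon's 95% critical value. Chance gives this in about 1 group in 20. Of the 10 feedback inhibitors, *Spry4* was one, with 32.8 CPM in WT replicate 3 against 71.4 to 75.5 CPM in the other WT libraries. *Errfi1* had 380.4 CPM in WT replicate 2 against 146 to 161 CPM in the others. *Ier3* had 86.2 CPM in Pdgfra-Cre:LmnaF/F replicate 3 against 47.3 to 51.5 CPM. The cardiac myocyte markers summed to 3345 CPM in Pdgfra-Cre:LmnaF/F replicate 4 against 205 to 422 CPM in the others of its genotype, and the leukocyte markers to 442 CPM in the same library against 47.7 to 109 CPM. The part of these libraries in the genotype differences is covered only by the fits that left them out.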

How the results depend on the processing

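For the 3 counts followed here (genes past the threshold, of the 10 inhibitors and of the pathway lists), edgeR gave 53, 0 and 1. DESeq2 gave 303, 2 and 3, limma-voom 126, 1 and 2, no filter 274, 1 and 4, 1 RUVr factor 81, 1 and 2, and DESeq2 with 1 RUVr factor 455, 3 and 4. RLE factors, upper-quartile factors and the filter of 10 counts left each count within 1.5 times, although *Dusp4* and *Dusp5* were not tested under that filter. Without single libraries the counts ranged from 13 to 76, 0 to 1 and 0 to 2, with 13 genes past the threshold without WT replicate 4 and 17 without Pdgfra-Cre:LmnaF/F replicate 3. Without WT replicate 2 and Pdgfra-Cre:LmnaF/F replicate 4 together they were 37, 0 and 2, and at equal depth 51, 0 and 1, where *Dusp5* was not tested.

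The labels give both genotypes replicates 1 to 4. Same-numbered libraries did not deviate together, with 0 of 4 correlations over 0.1 and 1 of 4 WT libraries matching its own number best, so the numbers were not taken to pair the mice. With the replicate block the counts were 36, 0 and 2.

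*Dusp4*, *Dusp5*, *Dusp6*, *Dusp1*, *Dusp10*, *Dusp16* and *Spry2* kept their direction in every fit in which they were tested. The log2 fold change of *Spry4* turned to -0.22 with limma-voom, -0.070 with the replicate block, -0.01 without WT replicate 3 and -0.13 without Pdgfra-Cre:LmnaF/F replicate 3, in a range of -0.13 to 0.57 without single libraries. That of *Dusp14* turned to -0.25 without Pdgfra-Cre:LmnaF/F replicate 3, in a range of -0.25 to 0.31, and -0.31 at equal depth. That of *Spry1* ranged from -0.20 to 0.0090 without single libraries, the latter without Pdgfra-Cre:LmnaF/F replicate 4. The cause of these turns was not tested. WT replicate 2 holds 4 counts of *Dusp4* and 3 of *Dusp5*, which limits the precision of their WT level.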
